A study of Mus musculus with 11 samples.

Results

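Mouse embryonic fibroblasts (MEFs) that expressed the transcription factor Klf4 without any other reprogramming factor were compared with MEFs that expressed lacZ, a bacterial enzyme gene used as a control. The comparison takes 3 of the 11 arrays of the series, chosen by their construct labels: Klf4S, Klf4L (titled Klf4+9) and lacZ. The remaining 8 arrays hold polycistronic reprogramming cassettes, which encode several factors in a single transcript (WTSI, STEMCCA, EB-C5, OKN-HAMS, MKOS, OSKM, OKMS and OK+9MS), and they serve here to show whether the cassettes share each change seen with Klf4 alone. The series asked how the amount of Klf4 and the design of the construct affect gene expression on the way to induced pluripotent stem cells.

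All cells, lacZ included, were male MEFs of 13.5 days post coitum with the genotype ROSA-rtTA; Nanog-GFP, from a mother of a C57Bl6 backcross and a father of a C57Bl6/129SV intercross. The transactivator rtTA switches the transgene on when doxycycline is given, and the GFP reports Nanog activity. Every transgene lay in the piggyBac transposon PB-TAC, which expresses it together with the red fluorescent protein mCherry, and was brought in by transfection with the transposase plasmid pCyL43. ES cell medium with doxycycline at 1 ug/mL followed. Cells with Klf4S, Klf4L or a cassette were sorted for mCherry on day 6, whereas lacZ cells were harvested unsorted on day 2, so cells without a transposon may have been among them. The transgene, the day and the sort therefore cannot be told apart in any difference from lacZ. Klf4 alone and the cassettes had the same day and the same sort.

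Klf4 is a zinc-finger protein of the Kruppel-like family, which binds CACCC-like and GC-rich DNA. It is known from the outer layers of the skin and from gut epithelium, where it favours differentiation and barrier formation and holds back cell division. In reprogramming it is given together with Oct4 (Pou5f1), Sox2 and c-Myc.

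Expression was read as log2 signals that the authors had made with RMA, so a difference of 1 is a 2-fold change. Medians of the 11 arrays lay between 7.188 and 7.269. In lacZ, 26.8% of probe sets read under 6, where signal and background cannot be separated from these values alone; differences measured from there are lower bounds. A gene was called when the limma fit over all 11 arrays in 3 groups gave a Benjamini-Hochberg adjusted p under 0.05 over 19938 genes. Constructs were measured once each, so the spread behind every p-value is that between different constructs (8 residual degrees of freedom), and lacZ, a single array, was assumed to vary as they do.

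The signals of the reprogramming factors were read first. Klf4 read 9.93 in Klf4S, 9.71 in Klf4L and 9.47 in lacZ, and from 9.64 to 10.20 in the cassettes. The Klf4 signal thus hardly set the Klf4 arrays apart from lacZ. Which part of the Klf4 transcript the probes read was not examined. Pou5f1 read 6.06, 5.85 and 6.09 on the same 3 arrays against 11.89 to 13.22 in the cassettes, which sets both Klf4 arrays apart from every cassette as their labels say. Myc (9.05, 8.65 and 9.54) and Sox2 (6.24, 6.33 and 6.79) read lower with Klf4 alone than in lacZ, and neither was called.

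The fibroblast label held on all 3 arrays. The 10 fibroblast markers averaged 12.04 in Klf4S, 12.03 in Klf4L and 10.78 in lacZ, and all 10 read higher with Klf4 alone. The 9 keratinocyte markers averaged 7.79, 7.86 and 6.67. Krt14, Itgb4 and Dsg3 carried that rise, while Krt5 (7.30, 7.11 and 6.70) and Trp63 (7.08, 7.17 and 6.99), which define basal keratinocytes, stayed near the array medians. Averages of the macrophage, endothelial, skeletal myoblast, neural and glial, adipocyte and chondrocyte, and erythroid and haematopoietic lists lay within 0.37 of lacZ on both Klf4 arrays. Single members moved further. Comp, a cartilage matrix protein, was called higher (8.41, 8.77 and 6.75, limma adjusted p = 0.0329). That call was lost when OSKM, OKMS, OK+9MS, WTSI, Klf4S or Klf4L was left out. The endothelial genes Tek (7.95, 7.88 and 6.24) and Emcn (5.83, 5.78 and 6.98) and the progenitor antigen Cd34 (11.96, 11.80 and 10.27) were 2-fold from lacZ on both arrays and not called. In a bulk sample, fewer cells of a type and less RNA per cell cannot be told apart.

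Both forms of Klf4 gave nearly the same profile. The SD of Klf4L minus Klf4S over all genes was 0.126, and 0 genes differed 2-fold between these arrays. The largest difference was that of Mmp13, a collagenase, at 9.69 in Klf4S and 10.62 in Klf4L. At least 2-fold from lacZ were 775 genes in Klf4S and 791 in Klf4L, of which 697 were so on both arrays in the same direction and 0 in opposite directions. These counts rest on a lacZ array that both differences share.

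**Figure D1:**
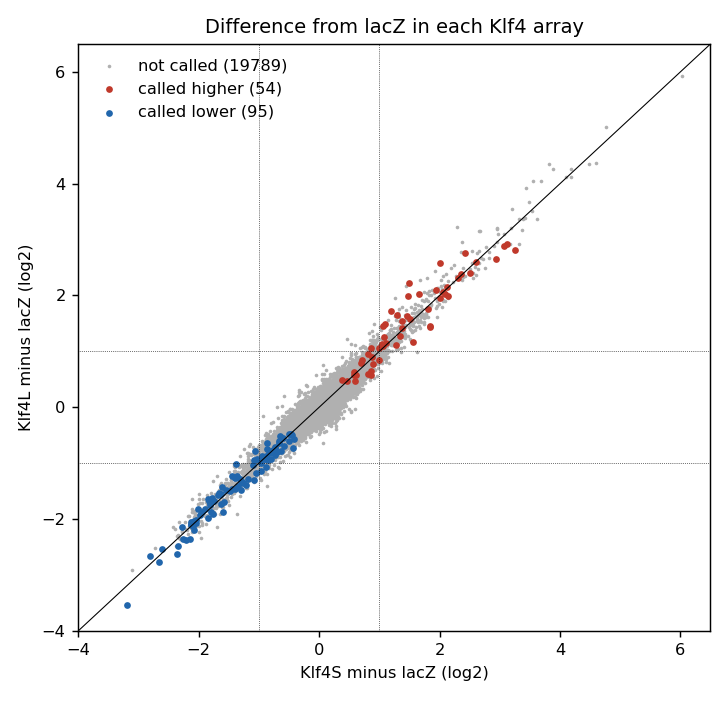
Each point is a gene, with Klf4S minus lacZ on the x axis and Klf4L minus lacZ on the y axis (log2). Red and blue points are the 54 genes called higher and the 95 called lower, dotted lines mark 2-fold, and points follow the diagonal. The lacZ array is common to both axes.

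Klf4 alone and lacZ differed in 149 called genes, 0.747% of those tested. Of these, 54 were higher with Klf4 (0.271%) and 95 lower (0.476%), and all 149 lay on the same side of lacZ on both Klf4 arrays. At least 2-fold on both arrays were 342 genes higher (1.72%) and 355 lower (1.78%), most of them not called. Many of the largest differences were not called. In such genes the cassettes, which set most of the shared spread, lay far apart: the median SD over the cassettes was 0.485 in genes 2-fold on both Klf4 arrays and not called, 0.151 in called genes and 0.159 in all genes. At the threshold, Mvk (adjusted p = 0.0485) and Mad2l1 (0.0492) lay just inside, and Brwd1 and Cdca3 (both 0.0512) just outside. Leaving out Klf4S left 40 calls and leaving out Klf4L left 36, of which 39 and 36 were among the 149. The count was 268 without MKOS and 93 without OK+9MS, and 27 calls were made in every fit that left out 1 of the 10 arrays other than lacZ.

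**Figure D2:**
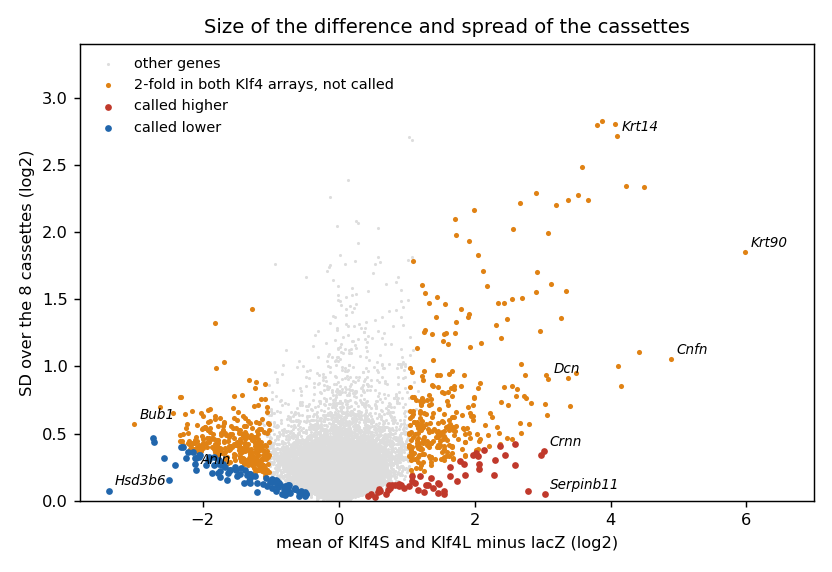
Each point is a gene, with the mean of Klf4S and Klf4L minus lacZ on the x axis and the SD over the 8 cassettes on the y axis (both log2). Called genes, red and blue, lie along the lower edge; Krt90, Cnfn and Krt14 are among the largest differences and have a wide spread over the cassettes.

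The clearest rise was that of a pair of neighbouring serine protease inhibitor genes of the clade B serpin cluster on chromosome 1. Serpinb11 read 8.01 in Klf4S, 7.56 in Klf4L and 4.76 in lacZ, and from 4.72 to 4.84 in the cassettes (median 4.81). The groups did not overlap, and the cassettes stayed at the lacZ level. Its difference from lacZ was 3.03 ± 0.15 (SE, n = 2 against n = 1, limma adjusted p = 1.56e-05). Serpinb7, an epidermal serpin, read 7.61, 7.33 and 4.68, with the cassettes between 4.56 and 4.77, and rose by 2.79 ± 0.12 (limma adjusted p = 9.87e-06). Klf4 alone also exceeded the cassettes in both genes, by 3.0 ± 0.09 (Serpinb11, limma adjusted p = 4e-07) and 2.80 ± 0.08 (Serpinb7, 2.97e-07). These calls held without each of the 10 other arrays in turn. Since lacZ and the cassettes read under 6 in both, the differences are lower bounds. The narrow spread of the cassettes at that level also enters each SE and p-value, which may therefore be too small. Of the 11 measured genes from Serpinb5 to Serpinb8 these were the only calls, beside 0.747% of all genes called in either direction. Serpinb5, the tumour-associated serpin maspin, read 7.68, 7.79 and 5.61 and was not called (adjusted p = 0.781), with cassettes from 5.0 to 8.80.

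The promoters of both serpins, and those of Cadm3, Ackr1 and Il1f9 described further on, are shown because these 5 had the largest differences among the 25 genes called higher, 2-fold on both Klf4 arrays and 2-fold in 0 cassettes. Sequences are those of RefSeq on GRCm38.p6, windows of 300 bases around the start of each gene, written 5′ to 3′ on the gene's strand. They lie at chr1:107362064-107362363 (plus strand, Serpinb11), chr1:107422439-107422738 (plus, Serpinb7), chr1:173367646-173367945 (minus, Cadm3), chr1:173333454-173333753 (minus, Ackr1) and chr2:24186226-24186525 (plus, Il1f9). Capitals mark CACCC, the core of the Kruppel-like motif, and its longer form GGGTGTGG, on either strand; GGGTGTGG holds CACCC read on the other strand.
Serpinb11: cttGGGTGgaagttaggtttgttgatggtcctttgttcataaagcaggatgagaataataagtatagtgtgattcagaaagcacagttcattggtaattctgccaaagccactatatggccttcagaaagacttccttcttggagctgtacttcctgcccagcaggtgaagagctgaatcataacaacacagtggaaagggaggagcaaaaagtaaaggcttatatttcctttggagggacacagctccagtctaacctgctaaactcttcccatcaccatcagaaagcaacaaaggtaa
Serpinb7: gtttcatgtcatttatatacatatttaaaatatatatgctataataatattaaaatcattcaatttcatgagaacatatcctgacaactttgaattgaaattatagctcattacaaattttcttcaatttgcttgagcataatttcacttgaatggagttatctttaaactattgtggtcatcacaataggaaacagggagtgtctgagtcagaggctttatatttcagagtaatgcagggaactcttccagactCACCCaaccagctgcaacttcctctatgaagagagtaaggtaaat
Cadm3: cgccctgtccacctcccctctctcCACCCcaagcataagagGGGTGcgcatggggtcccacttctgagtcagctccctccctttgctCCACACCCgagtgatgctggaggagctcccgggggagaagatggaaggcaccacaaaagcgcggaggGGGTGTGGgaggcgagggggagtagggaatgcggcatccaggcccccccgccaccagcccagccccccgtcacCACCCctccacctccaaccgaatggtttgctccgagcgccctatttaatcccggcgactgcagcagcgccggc
Ackr1: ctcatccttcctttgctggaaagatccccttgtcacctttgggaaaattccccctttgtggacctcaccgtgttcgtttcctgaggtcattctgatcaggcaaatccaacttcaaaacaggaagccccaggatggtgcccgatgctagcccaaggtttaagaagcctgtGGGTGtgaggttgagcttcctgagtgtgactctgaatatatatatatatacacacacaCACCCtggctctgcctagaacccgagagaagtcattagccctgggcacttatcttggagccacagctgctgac
Il1f9: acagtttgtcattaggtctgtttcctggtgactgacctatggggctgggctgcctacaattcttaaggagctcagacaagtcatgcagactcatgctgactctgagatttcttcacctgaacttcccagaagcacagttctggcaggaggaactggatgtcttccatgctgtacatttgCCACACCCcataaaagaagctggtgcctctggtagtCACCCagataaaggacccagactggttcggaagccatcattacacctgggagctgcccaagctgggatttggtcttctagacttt
Serpinb11 and Serpinb7 held 1 CACCC each and 0 of the longer motif, Cadm3 held 5 and 2, Ackr1 held 2 and 0, and Il1f9 held 2 and 1. Over all measured genes with such a window, 63.5% of 15563 held CACCC in at least 1 window and 4.37% held GGGTGTGG. Among the 40 genes called higher that had a window, 75.0% held CACCC and 6 (15%) held GGGTGTGG, against 55.1% and 3 (3.85%) of the 78 called lower. Among the 237 genes 2-fold higher on both Klf4 arrays that had a window, called or not, 78.9% held CACCC and 6.75% GGGTGTGG, and among the 285 lower 56.8% and 3.86%. A related GC form, GGGCGTGG, was held by 8.55% of all genes, 1 called higher and 7 called lower. These shares describe letters in a window and were given no test; GC content was 55.7% at the median in windows of genes called higher, 57.5% in those called lower and 57.7% in all.

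Genes of the cornified layer, the dead outermost sheet of the epidermis, moved up in part. Of the 41 list members, 4 were called higher and 0 lower, 14 were 2-fold higher on both Klf4 arrays, and the median difference was 0.32 (0.00 over all genes). Of all genes, 0.271% were called higher and 1.72% were 2-fold higher on both Klf4 arrays. Cornulin (Crnn), a cornified envelope protein, read 9.44 in Klf4S, 9.25 in Klf4L and 6.32 in lacZ, with a cassette median of 6.55 and a highest cassette of 7.43. It rose by 3.02 ± 0.39 (limma adjusted p = 0.0104) and lay above the cassettes by 2.70 ± 0.25 (0.000832). Both Klf4 arrays exceeded every other array.

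The proteases Klk5 and Klk7, which cut the links between cornified cells, behaved alike. Klk7 read 8.53, 9.25 and 7.03 against 6.78 to 7.26 in the cassettes, and Klk5 read 6.88, 7.41 and 5.41 against 5.30 to 5.72. Their differences from lacZ were 1.86 ± 0.29 (adjusted p = 0.0237) and 1.74 ± 0.22 (0.0094). In both genes the cassettes lay around the lacZ level and both Klf4 arrays above it. For Klk5, lacZ and the cassettes read under 6, so its rise is a lower bound and its SE and p-value may be too small. Klk5 and Klk7 were the only calls among 23 measured genes of the kallikrein cluster from Klk1 to Klk14. Over all genes, 0.747% were called in either direction. Of the 23, 4 were 2-fold higher on both Klf4 arrays and 0 lower (1.72% and 1.78% over all genes). Another 17 stayed within 1.5-fold of lacZ on both Klf4 arrays, a share that was not counted over all genes.

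The late cornified envelope gene Lce1a1 rose by 1.03 ± 0.13 to 6.60 and 6.67, and Lce1h, of the same family, fell by 1.64, from 9.68 in lacZ to 8.10 and 7.99. The cassettes read lower still in Lce1h, from 7.27 to 7.70. Pglyrp3, an antibacterial peptidoglycan-binding protein, rose by 2.02 ± 0.37 to 7.73 and 7.87. The epidermal differentiation complex on chromosome 3, from S100a10 to S100a1, held 62 measured genes. Crnn, Lce1a1 and Pglyrp3 were the 3 called higher and Lce1h the 1 called lower. Over all genes, 0.271% were called higher and 0.476% lower. Without Klf4L, Klk7 (adjusted p = 0.0882), Lce1a1 (0.0658) and Crnn (0.0604) were not called. Crnn was also lost without Klf4S (0.0746), and Pglyrp3 was called in 2 of the 10 fits that left out 1 array.

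Keratins of stratified epithelia, the filament proteins of skin, held the largest difference of all, that of Krt90, and 0 calls. Of 13 list members, 7 were 2-fold higher on both Klf4 arrays and 0 lower (1.72% and 1.78% over all genes), with a median of 2.18. Krt90 read 13.07 in Klf4S, 12.97 in Klf4L and 7.04 in lacZ, a difference of 5.98 ± 1.93 (adjusted p = 0.24), with cassettes from 7.22 to 11.52. Both Klf4 arrays lay above every cassette, and that difference was called (4.37 ± 1.25, limma adjusted p = 0.0452), but in only 2 of the 10 fits that left out 1 array, and not without Klf4S (0.262) or Klf4L (0.226). Krt16, a keratin of stressed skin, read 10.39, 10.47 and 6.21 (adjusted p = 0.59), and Krt14, of basal cells, read 10.84, 11.37 and 7.01 (0.697). In these, the Klf4 arrays lay within the range of the cassettes, which ran from 5.95 to 11.26 and from 6.76 to 12.48.

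The cassettes split in these genes. Exactly 4 of them were 2-fold over lacZ in 51 of the 342 higher genes, and in 41 of the 51 those were OSKM, OK+9MS, MKOS and OKN-HAMS. The members named from here to the end of the paragraph were chosen after their values were seen. Among the 41 were Krt90, Krt14, Krt16 and Krt6a, the cornified-layer genes Cnfn, Alox12b and Sprr3, the kallikrein Klk14, the desmosomal cadherin Dsg3, Serpinb5 and the secreted keratinocyte peptide Slurp1. Slurp1 read 11.25 in Klf4S and 11.03 in Klf4L, from 10.64 to 11.46 in those 4 cassettes, and from 6.43 to 6.95 in OKMS, STEMCCA, EB-C5 and WTSI, beside 6.65 in lacZ. Cnfn, a cornified envelope protein, read 11.92, 12.18 and 7.16, above the 8.36 to 9.86 of the same 4 and the 7.04 to 7.51 of the rest. Both Klf4 arrays lay below those 4 cassettes in 14 of the 41 genes, above them in 5 and both within their range in 17. In the other 5 only 1 of the Klf4 arrays lay within that range. None of the 41 was called. They were picked by a split of the cassettes, which widens the spread behind each p-value, so the lack of calls says little.

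Regulators and junctions of epithelia were less uniform. Of 18 epithelial transcription and splicing regulators 0 were called, with a median of 0.04: Grhl3, a factor of barrier formation, read 9.53, 9.46 and 6.88 (adjusted p = 0.218), while Klf5 read 8.58, 8.69 and 9.79 (0.16). Among 32 adhesion and junction genes, 6 were 2-fold higher on both arrays and 1 lower (1.72% and 1.78% over all genes), with 0 called. Desmoplakin (Dsp), which ties keratins to desmosomes, read 9.78, 9.80 and 6.83, and E-cadherin (Cdh1) read 7.05, 7.42 and 6.37, below the 7.43 to 11.46 of the cassettes. The desmosomal cadherin Dsc3 read 8.44, 8.68 and 6.41 against 5.72 to 6.95 in the cassettes, a call against the cassettes (2.20 ± 0.39, limma adjusted p = 0.0098) and not against lacZ (adjusted p = 0.163). The call against the cassettes was lost without Klf4S (0.114) or Klf4L (0.12).

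**Figure D3:**
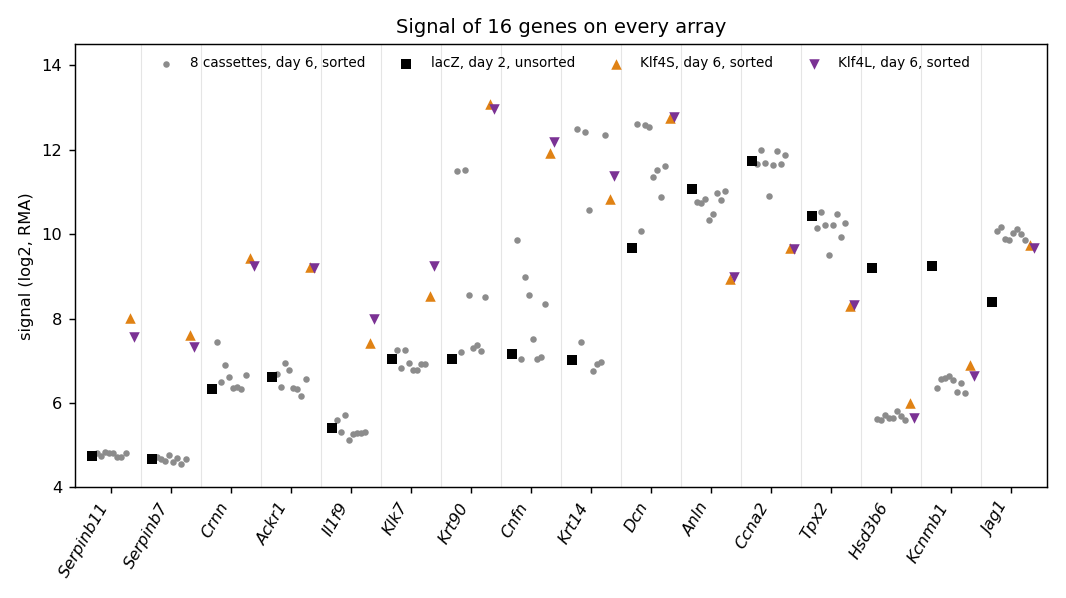
Signal (log2, y axis) of 16 genes on every array: lacZ as squares, the 8 cassettes as grey dots, Klf4S and Klf4L as triangles. Serpinb11 and Serpinb7 stand above all other arrays, Krt90, Cnfn and Krt14 show the split of the cassettes, Anln, Ccna2 and Tpx2 stand below all others, and Hsd3b6 and Kcnmb1 are low in Klf4 arrays and cassettes alike.

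Genes of immune signalling showed 4 calls among 36, all higher, against 0.271% called higher over all genes. The atypical chemokine receptor Ackr1, which binds chemokines without passing a signal on, read 9.22 in Klf4S, 9.20 in Klf4L and 6.61 in lacZ, with cassettes from 6.16 to 6.96. It rose by 2.60 ± 0.28 (limma adjusted p = 0.00586) and lay 2.69 ± 0.18 above the cassettes (0.00015). Both Klf4 arrays stood over 2 log2 units above any other array.

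The interleukin-1 family members Il1f9, a cytokine of epithelia, and Il1f5, the antagonist of its receptor, rose together. Il1f9 read 7.43, 7.99 and 5.42 (2.29 ± 0.26, adjusted p = 0.00713), and Il1f5 read 7.30, 7.46 and 6.22 (1.17 ± 0.11, 0.00198). The highest cassettes read 5.72 and 6.26. For Il1f9, lacZ and all cassettes read under 6, so its rise is a lower bound and its SE and p-value may be too small. The other 3 of the 5 measured genes of the cluster of Il1f9 and Il1f5, Il1f6, Il1f10 and Il1rn, lay within 1.5-fold of lacZ. Edn2, the vasoactive peptide endothelin 2, rose by 2.45 ± 0.36 to 9.11 and 9.01 (adjusted p = 0.019) but was not called without Klf4S or Klf4L (0.12 and 0.102). The list as a whole had a median of 0.00, with 7 members 2-fold higher on both arrays and 2 lower (1.72% and 1.78% over all genes). The 2 lower were Il6 (5.71, 6.15 and 7.71) and the monocyte attractant Ccl2 (11.05, 11.23 and 12.23), neither called.

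Other genes that rose with Klf4 alone and in 0 cassettes had various known roles. The cell adhesion molecule Cadm3 read 10.33, 10.14 and 7.26, with cassettes from 6.65 to 7.55, and rose by 2.98 ± 0.36 (limma adjusted p = 0.00777; 0.0578 without Klf4S). The pepsinogen gene Pgc read 7.47, 7.53 and 5.95 against 5.81 to 5.99 in the cassettes and rose by 1.54 ± 0.10 (0.000104). The splicing factor Celf3 rose by 1.55 ± 0.09 (5.87e-05), and the extracellular matrix protein Tnxb by 1.40 ± 0.12 (0.00103). In each of these 4 genes the Klf4 arrays lay above all cassettes, which follows from choosing genes that rose in 0 cassettes. The last 3 calls held without each of the 10 other arrays in turn. For Pgc, lacZ and the cassettes read under 6, so its rise is a lower bound and its SE and p-value may be too small.

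Only 6 genes were called higher, 2-fold on both Klf4 arrays and 2-fold over lacZ in all 8 cassettes. Gpm6b, a membrane proteolipid, read 11.01 on both Klf4 arrays and 8.70 in lacZ, with cassettes from 10.55 to 11.55 (2.31 ± 0.33, adjusted p = 0.0147). Jag1, a Notch ligand, read 9.75, 9.66 and 8.40, with cassettes from 9.85 to 10.16 (1.31 ± 0.14, 0.00515). That lacZ stood apart in both genes follows from how they were chosen. The Klf4 arrays lay near the cassettes. The basement membrane laminin Lama4 (2.37), the cholesterol exporter Abca1 (2.05), the growth factor binding protein Igfbp2 (1.64) and the kinase Dapk1 (1.13) made up the 6. Without Klf4S or Klf4L only Jag1 of the 6 was called, and Lama4, Abca1 and Igfbp2 also depended on several of the cassettes.

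Genes of cell division fell with Klf4 alone. Of 47 genes of mitosis and G2/M, 17 were called lower and 0 higher, 45 were 2-fold lower on both arrays, and all 47 read below lacZ on both, with a median of -2.03. Over all genes, 0.476% were called lower, 1.78% were 2-fold lower on both arrays, and 8087 of 19938 read below lacZ on both. The list averaged 8.0 in Klf4S, 8.02 in Klf4L and 9.96 in lacZ, and from 9.07 (MKOS) to 10.13 (EB-C5) in the cassettes. Klf4 alone thus stood below lacZ and below every cassette.

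Anillin (Anln), a scaffold of the contractile ring that divides the cell, read 8.95 in Klf4S, 8.98 in Klf4L and 11.07 in lacZ, with cassettes from 10.34 to 11.02, and fell by 2.11 on the log2 scale (SE 0.25, limma adjusted p = 0.00713). Cyclin A2 (Ccna2), which drives S phase and entry into mitosis, read 9.68, 9.65 and 11.72 (-2.06 ± 0.36, 0.0383), and the spindle assembly factor Tpx2 read 8.31, 8.33 and 10.44 (-2.12 ± 0.34, 0.0265). The kinase Cdk1, the partner of the mitotic cyclins, read 9.996, 10.06 and 11.74 (-1.72 ± 0.28, 0.0315). In none of these did a Klf4 array overlap a cassette. Of the 10 fits that left out 1 array, Anln was called in 10, Tpx2 in 6, Cdk1 in 5 and Ccna2 in 3. The condensin subunit Smc2 (-1.86), the midzone motor Kif23 (-2.25), the bundling protein Prc1 (-2.13) and the kinetochore motor Cenpe (-2.03) fell as well. Smc2 and Kif23 were called in 8 of those 10 fits, Cenpe in 3 and Prc1 in 2. Apart from Anln, none of these genes was called without Klf4S or Klf4L. The spindle checkpoint kinase Bub1, with the largest difference of the list, read 7.31, 7.5 and 10.42 and was not called (-3.01 ± 0.60, adjusted p = 0.0602).

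Against the cassettes, which share day and sort with Klf4 alone, the fall was called in 46 of the 47 genes; over all genes, cassettes were called higher than Klf4 alone in 6.35%. Both Klf4 arrays read below all 8 cassettes in 47 of 47, which held for 12.3% of all genes. Anln differed by 1.78 ± 0.16 (limma adjusted p = 0.000722), Ccna2 by 2.01 ± 0.23 (0.00184) and Bub1 by 2.54 ± 0.39 (0.00588). Anln was called in all 10 fits that left out 1 array, Ccna2 was lost without Klf4L (0.0518), and Bub1 without Klf4S (0.106) or Klf4L (0.0803). The calls need both Klf4 arrays: without Klf4S 9 of the 47 were called against the cassettes, and without Klf4L 7. Against lacZ, 40 were called without MKOS, 4 without OSKM or OK+9MS and 1 without Klf4S or Klf4L.

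Genes of DNA synthesis followed the same course. Of 43 replication genes (median -1.39), 2 were called lower and 30 were 2-fold lower on both arrays, against 0.476% and 1.78% of all genes. Against the cassettes 38 were called, but 1 without Klf4S and 1 without Klf4L. Cassettes were called higher than Klf4 alone in 6.35% of all genes. The histone chaperone Asf1b read 8.39, 8.27 and 11.04 (-2.71 ± 0.46, limma adjusted p = 0.0329), and Gins2, of the replicative helicase, read 8.57, 8.51 and 9.97 (-1.43 ± 0.26, 0.0443). Both were lost without OSKM, OK+9MS, WTSI, Klf4S or Klf4L, and Gins2 was called in 2 of the 10 fits that left out 1 array. The helicase subunit Mcm6 read 7.85, 7.88 and 10.01 and was not called (0.0514). Among 12 histone genes, which include the variants H2ax and H2az1 beside replication-coupled genes, 6 were 2-fold lower, both variants among them, and among 22 genes of checkpoint and repair 12 were, with 0 calls in both lists (medians -1.06 and -1.13). Of 19 G1 cyclins, CDKs and E2F factors, the repressor E2f7 was the 1 call (-1.91 ± 0.35, 0.0426; called in 2 of the 10 fits that left out 1 array), with a list median of -0.50. Among 28 CDK inhibitors and p53 targets 0 were called, and Gadd45a, a stress-induced growth inhibitor, read 9.40, 9.31 and 7.68 (1.68 ± 0.33, adjusted p = 0.0603).

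MKOS came closest to Klf4 alone in these genes. Of 54 genes lower with Klf4 alone and in exactly 1 cassette, 50 were lower in MKOS. Of all genes, 1.67% were 2-fold lower in MKOS. Among the 50 were 15 of the mitosis list and 6 of the replication list, which hold 47 and 43 of the 19938 genes. In 49 of the 50, both Klf4 arrays still read below MKOS. These genes were chosen as 2-fold lower than lacZ on both Klf4 arrays, and the share over all genes was not counted.

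Growth and lipid synthesis moved less. All 29 MYC targets and ribosome biogenesis genes read below lacZ on both Klf4 arrays (8087 of 19938 over all genes), with a median of -0.41 and 0 calls. Of the 29, 28 read below all 8 cassettes on both Klf4 arrays, against 12.3% of all genes. Against the cassettes 22 were called, but 1 without either Klf4 array. Cassettes were called higher than Klf4 alone in 6.35% of all genes. The transferrin receptor Tfrc, which takes up iron, read 7.58, 7.72 and 9.38 (-1.73 ± 0.41, adjusted p = 0.0997) and lay 2.70 ± 0.26 below the cassettes (limma adjusted p = 0.00093). All 19 genes of cholesterol and fatty acid synthesis (median -0.55) read below lacZ on both Klf4 arrays, beside the same 8087 of 19938 over all genes. The fatty acid elongase Elovl6 was the 1 call, at 10.37, 10.28 and 11.55 (-1.23 ± 0.21, 0.0315; not called without OK+9MS, Klf4S or Klf4L). Glycolysis genes showed 0 calls and a median of -0.03 over 17.

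**Figure D4:**
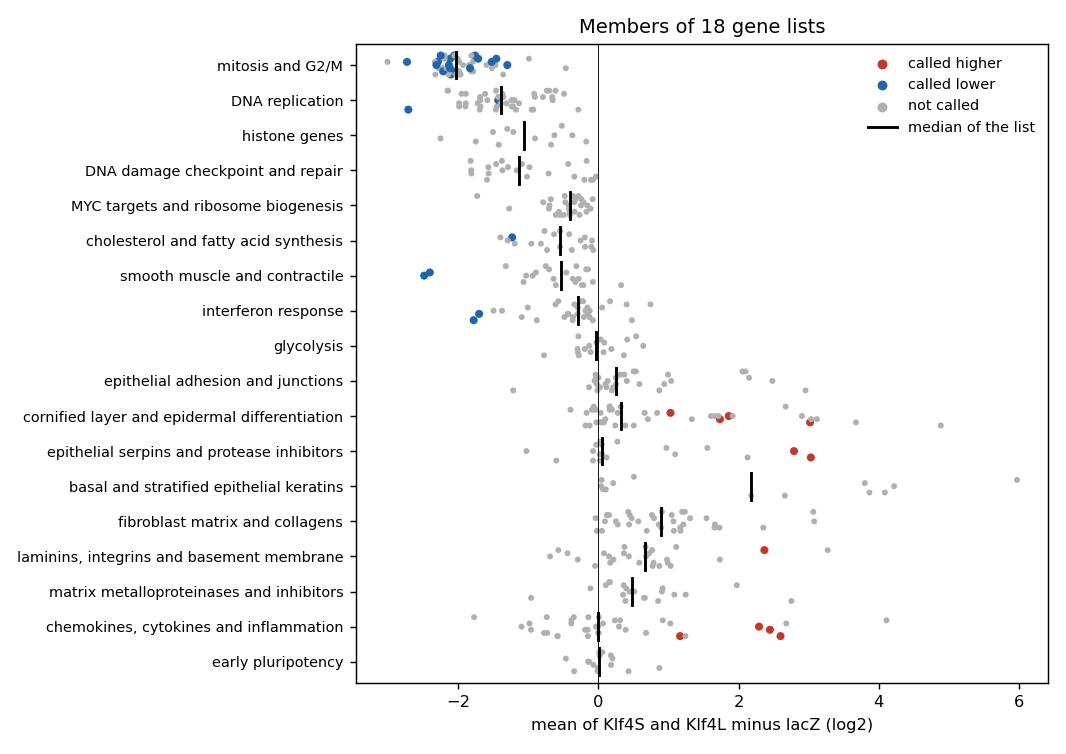
Mean of Klf4S and Klf4L minus lacZ (log2, x axis) for each member of 18 gene lists, with the median of each list as a black bar and called members in red or blue. The mitosis list centres on -2.03 and the stratified keratins on 2.18, while glycolysis and early pluripotency centre near 0.

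Matrix genes of fibroblasts read higher with Klf4 alone. Of 35 members, 16 were 2-fold higher on both Klf4 arrays and 0 lower (1.72% and 1.78% over all genes). The median was 0.90, and 0 were called. Decorin (Dcn), a collagen-binding proteoglycan, read 12.75 in Klf4S, 12.77 in Klf4L and 9.68 in lacZ (3.08 ± 0.95, adjusted p = 0.215), with cassettes from 10.07 to 12.61. Lumican (Lum), of the same family, read 9.49, 9.72 and 6.54 (0.084), and the collagen chain Col3a1 read 11.31, 11.25 and 8.93 (0.0896). On both Klf4 arrays these 3 genes read above every cassette, as did 27 of the 35 members, against 17.8% of all genes.

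Of these 35, 7 were called lower in the cassettes than with Klf4 alone (8.12% over all genes), Col3a1 among them (1.19 ± 0.34, limma adjusted p = 0.0462). That count was 0 without OSKM, WTSI, Klf4S or Klf4L and 18 without STEMCCA. Matrix metalloproteinases and their inhibitors had a median of 0.48 over 20 members, with 4 that were 2-fold higher (1.72% over all genes) and 0 calls. The collagenase Mmp13 read 9.69, 10.62 and 7.40 and the stromelysin Mmp3 8.63, 9.24 and 6.96. In both genes Klf4L read above Klf4S. Among 22 surface markers and mesenchymal regulators 0 were called, and the median was 0.10.

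Some genes fell with Klf4 alone and in every cassette. Of the 95 called lower, 57 were 2-fold lower on both Klf4 arrays, and 24 of these were 2-fold lower in all 8 cassettes. The steroid dehydrogenase Hsd3b6 read 5.99 in Klf4S, 5.65 in Klf4L and 9.19 in lacZ, with cassettes from 5.59 to 5.81 (-3.37 ± 0.14, limma adjusted p = 9.13e-06), a lower bound since the low arrays read under 6. Kcnmb1, a potassium channel subunit of smooth muscle, read 6.90, 6.64 and 9.26 against 6.23 to 6.65 in the cassettes (-2.49 ± 0.19, 0.000474). For Hsd3b6 the narrow spread of the cassettes under 6 also enters the SE and p-value, which may therefore be too small. The calls of Hsd3b6 and Kcnmb1 held without each of the 10 other arrays in turn. That the single lacZ array stands apart in these genes follows from choosing genes lower on both Klf4 arrays and in all 8 cassettes. It was harvested on another day and unsorted, and transgene, day and sort cannot be told apart here.

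The stretch-responsive muscle protein Ankrd1 read 7.90, 7.76 and 10.24 (-2.41 ± 0.29, adjusted p = 0.00713; 0.0541 without Klf4L), with cassettes from 7.08 to 7.80. Both Klf4 arrays lay far below lacZ and near the top of the cassettes. The Ras activator Rasgrp3 (-2.58) and the gut and brain peptide Cck (-1.95) fell likewise and were not called without Klf4S or Klf4L. Kcnmb1 and Ankrd1 were the 2 calls among 22 smooth muscle and contractile genes, whose median was -0.53. Of all genes, 0.476% were called lower. Of 31 interferon response genes 2 were called lower (median -0.30), Oasl1 at 10.22, 10.27 and 12.03 (-1.78 ± 0.22, limma adjusted p = 0.00887; 0.0626 without Klf4S and 0.0579 without Klf4L) and Cmpk2 at 8.96, 9.12 and 10.74 (-1.70 ± 0.30, 0.0379; called in 4 of the 10 fits that left out 1 array). Both were 2-fold lower in all 8 cassettes.

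Lists on the path to pluripotency hardly moved with Klf4 alone. Of 15 early pluripotency genes 0 were called, with a median of 0.01, against a cassette median of 1.28 over lacZ. Alkaline phosphatase (Alpl), an early mark of reprogramming, read 6.85, 6.96 and 6.47, and 8.43 to 11.29 in the cassettes. Sall4, a stem cell factor, read 7.14, 6.98 and 7.52, and 7.37 to 10.12 in the cassettes. Of 18 late pluripotency genes 0 were called either (median -0.01). Among 17 Kruppel-like factors 0 were called and 2 were 2-fold lower on both arrays (1.78% over all genes), Klf5 and Klf7 (9.32, 9.27 and 10.52).

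Over all changes, sharing by the cassettes was uneven. Of the 342 genes 2-fold higher with Klf4 alone, 111 were 2-fold higher in 0 cassettes and 25 in all 8; of the 355 lower, 184 were so in 0 and 60 in all 8. Among called genes that were 2-fold on both Klf4 arrays, 25 of 37 higher and 20 of 57 lower were shared by 0 cassettes, and 6 and 24 by all 8. MKOS shared the most, 53.8% of the 342 and 44.2% of the 355, and WTSI shared 16.4% and 23.9%. By comparison, 2.71% and 1.67% of all genes were 2-fold higher and lower in MKOS, and 2.14% and 3.22% in WTSI. All these differences use the same lacZ array, so a high or low reading there appears as a shared change.

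**Figure D5:**
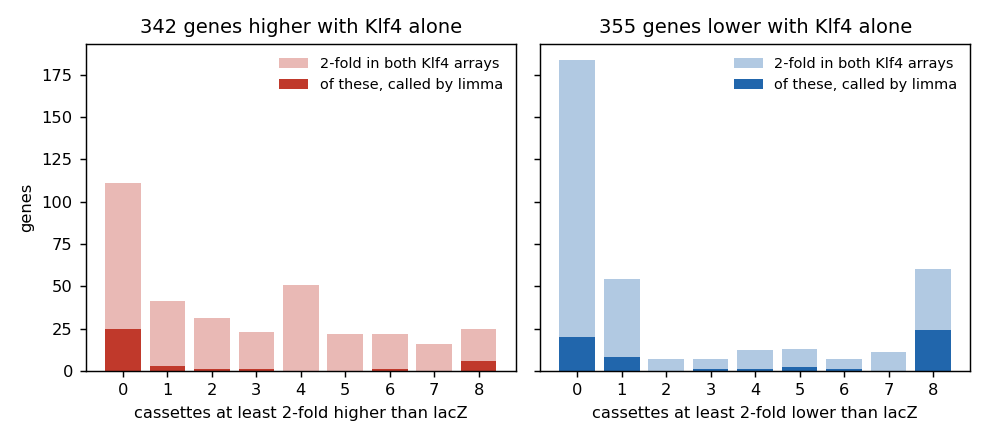
Number of genes (y axis) that were 2-fold higher (left) or lower (right) than lacZ on both Klf4 arrays, by the number of cassettes (x axis) that were 2-fold from lacZ in the same direction. Darker bars are the called genes: 25 higher and 20 lower in 0 cassettes, 6 and 24 in all 8.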

How the data were processed

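Gene expression was measured on 11 Affymetrix arrays, 1 per construct. Values are log2 signals that the authors deposited, made with RMA per the submitters' processing notes; its version, background and probe settings are not given in the sources used here. RMA equalises the distribution of signals between arrays, so a shift of most genes in 1 direction would be reduced. Of 28856 probe sets, 21789 carry 1 gene symbol in the platform annotation, 1621 several and 5446 none. Where several probe sets read a gene (999 genes), the brightest over all arrays was taken, which gave 19938 genes. Groups were fitted with limma 3.58.1 in R 4.3.3 (lmFit and eBayes, log2 scale, cassettes n = 8, Klf4 alone n = 2, lacZ n = 1), with Benjamini-Hochberg adjustment over all genes and a threshold of 0.05. Nothing in the labels says that constructs were repeated, so p-values measure the spread between constructs. Precision is limited by how few arrays there are.

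Named genes were the 15 called genes with the largest differences in each direction, leading members of each list, the reprogramming factors, called genes shared by all 8 or by 0 cassettes, those with the largest difference between Klf4L and Klf4S and those nearest the threshold. Outside this rule, Bub1, Mcm6, Ccl2, Il6, Celf3, Pgc, Tnxb, Lce1h, Serpinb5, Krt6a, Krt5, Trp63, Dsg3, Cnfn, Slurp1, Alox12b, Sprr3, Klk14, Comp, Tek, Emcn, Cd34 and H2az1 were chosen after their values were seen. Members and gene lists were chosen with earlier results of these data known. The fit was tested on simulated data. Alternatives were other variance priors, filters, probe set rules, scalings, folds and left-out arrays. Promoter windows are those of RefSeq on GRCm38.p6.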

Additional observations from a re-analysis of the deposited data

Results flagged for a closer look

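Among 129 named genes, 12 had 1 cassette far from the other 7 relative to the range of the group; chance gives this in about 1 of 20 groups. MKOS stood apart, at the low end, in Asf1b (9.59), Ccna2 (10.91), E2f7 (8.26) and Kif23 (9.32), 4 genes of the cell cycle that fell with Klf4 alone. OSKM stood apart in Ceacam2 (7.19) and Igfbp2 (9.64), and STEMCCA in Cntd1 (6.17) and Dsp (7.72). OKMS stood apart in Mvk (9.39) and Slc7a11 (8.65), EB-C5 in Myc (9.86) and WTSI in Sox2 (7.76). The cause was not tested in any of these genes.

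Of 7067 probe sets with no gene symbol or several, which entered no comparison, 31 (0.439%) were at least 2-fold higher than lacZ on both Klf4 arrays and 40 (0.566%) at least 2-fold lower.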

How the results depend on the processing

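A fit to Klf4S, Klf4L and lacZ alone, with 1 residual degree of freedom, called 0 genes in either direction, while 6485 had an unadjusted limma p under 0.05. Leaving out 1 array other than lacZ gave 36 to 268 calls, 18 to 84 of them higher and 16 to 184 lower; the lowest totals were without Klf4L (36) or Klf4S (40), where the lone Klf4 array is assumed to vary like the cassettes, and the highest was without MKOS. Calls between the cassettes and Klf4 alone, 2885 in all, were 92 to 104 without a Klf4 array. Among genes above the median level, 77 were called, 18 higher and 59 lower, so 23.4% were higher against 36.2% over all genes; without Klf4L 55.6% were. At 1.5-fold on both Klf4 arrays 888 genes were higher and 940 lower, and at 3-fold 146 and 143. Called genes shared by all 8 cassettes numbered 31, or 55 when 1.5-fold in each cassette counted. The remaining counts, under a trended or robust prior, another probe set rule, quantile scaling or centring, stayed within 1.5 times. No called gene that the text names changed direction under any alternative run. The median of the stratified keratins was 3.87 among genes above the median level, against 2.18 over all its members. The counts per list and the calls against the cassettes per gene without each array were added after seeing the data. No paired analysis was possible because the groups share no replicate numbers in the labels. With a single lacZ array, harvested on another day and unsorted, none of these settings bears on lacZ itself.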
